A study of Mus musculus with 8 samples.

Results

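Intraflagellar transport carries cargo along the microtubule core of cilia and of the growing sperm tail. Its particles hold subcomplex B, which travels outward with kinesin-2, and subcomplex A, which serves the return with dynein-2. The BBSome is a coat-like cargo adaptor that rides on these particles, and in the mouse testis the system is best known for building the flagellum after meiosis. The genes described here are those whose symbols name Ift or Bbs proteins by number, together with Wdr19, Wdr34, Wdr35, Wdr60, Ttc8, Ttc21b, Ttc26 and Traf3ip1. These symbols gave 28 genes of 12587 in the splicing tables. All 28 were in the spermatocyte tables and 27 in the round spermatid tables, where Ift27 had no event. By role, 6 belong to subcomplex A, 13 to subcomplex B, 2 to dynein-2 and 7 to the BBSome.

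Round spermatids, the haploid cells that follow meiosis, and spermatocytes, the meiotic cells before them, came from adult C57BL/6 males in which Larp7 was conditionally knocked out and from males labelled as wild type. Each genotype and stage had 2 libraries, 8 in all. Cells were sorted by Hoechst fluorescence, and polyadenylated RNA was sequenced. The Cre driver and the age in weeks were not given in the sources used here, and the libraries, called biological replicates by the submitters, are not tied to single animals, so that p-values measure the spread between these libraries. Each table numbers its 2 sample groups and names no genotype for them, so a difference within a stage is given here as the first minus the second (group 1 minus group 2). Larp7, an RNA-binding protein of the 7SK particle, had a 125-nt exon (chr3:127544154-127544278) whose inclusion in round spermatids was 0.279 and 0.598% in group 1, against 100 and 100% in group 2. In spermatocytes it was 2.4 and 0.951% against 100 and 100%. No sample group was given a genotype from these values.

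An event is a cassette exon, a pair of mutually exclusive exons, an alternative splice site or a retained intron. Its inclusion level is the length-normalised share of reads that hold the alternative part. The members had 263 of 52897 events in round spermatids and 307 of 66122 in spermatocytes. Of these, 253 and 305 had at least 10 reads per library on average and a read of each form, and were tested. Event reads per library summed to between 49904607 and 93265932 in round spermatids and between 51786242 and 102000320 in spermatocytes, with overlapping events counted more than once. In both stages the deepest library was library 2 of group 1. All 570 member events lay inside the RefSeq gene of the same symbol, and coordinates are of mm10.

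No genome was used here, so that the only sequences shown are from RefSeq windows before an annotated start. They are on GRCm38.p6, the assembly that mm10 stands for. They are shown because RFX transcription factors, known regulators of ciliary genes, bind the X-box, an inverted repeat of a short arm. Bbs5 and Ttc8 are shown because they had the largest rise and the largest fall of the members between the stages. That order is by 1 event per gene. The X-box was searched as GTTNCC, 2 bases of any kind and GGNAAC, and the single arm as GTTGCC, on either strand, in the 250 bases before the start. Overlapping matches of both kinds were each counted. Windows were found for 25 members. The full motif was in 2 of 25 windows, or 8%, against 0.374% of 32851 windows of all genes, and the arm in 6, or 24%, against 10.4%. The 60-base stretches below run 5′ to 3′ on the strand of the gene, with matches in capitals. For Bbs5 and Ttc8, whose windows held no match, the stretch is the last before the start. The start of a window need not be the outer bound of the gene. By the RefSeq gene bounds, the stretches of Bbs5 and Ttc26 lie inside the gene, and those of Ttc8 and Bbs7 partly so.
Ttc26 (chr6:38381464-38381523, plus strand): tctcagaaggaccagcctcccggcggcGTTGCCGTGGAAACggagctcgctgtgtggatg
Bbs7 (chr3:36613471-36613530, minus strand): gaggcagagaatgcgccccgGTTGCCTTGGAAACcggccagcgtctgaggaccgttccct
Ift57 (chr16:49699187-49699246, plus strand): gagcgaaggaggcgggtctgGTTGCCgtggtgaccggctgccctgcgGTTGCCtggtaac
Bbs5 (chr2:69647111-69647170, plus strand): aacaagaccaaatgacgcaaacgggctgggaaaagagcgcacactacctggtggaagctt
Ttc8 (chr12:98920514-98920573, plus strand): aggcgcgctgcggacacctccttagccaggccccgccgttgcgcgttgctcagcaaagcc
The matches in Ttc26 and Bbs7 span both arms, and Ift57 held 2 separate arms. Ift140, Ift27 and Traf3ip1, whose stretches are not shown, each held 1 arm. In read abundance Ttc26 and Ift140 fell in round spermatids, Ift57 and Traf3ip1 rose and Bbs7 did not pass the test. Ift27 had no event in round spermatids. Whether the matches go with abundance was not tested. A match is a description and not a measured binding site.

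A gene's abundance was read from its best covered event, in CPM, the reads of that event scaled to a fixed total over the best covered events of all genes. To order the genes, these reads were set per kilobase of form length. The event differed in type between genes and stages, so the order is a rough one. Ift22 was read from an alternative splice site, and Ift140 from an exclusive pair in round spermatids but a cassette exon in spermatocytes. Ift22 and Ift74, both of subcomplex B, had the highest medians in round spermatids, 1280 and 1250 CPM per kb, and their libraries overlapped. Ift43, of subcomplex A, came next at 934 CPM per kb, with a range of 906 to 979 that lay below all values of Ift74. The lowest were Ttc26 at 84.6, Bbs1 at 37.9 and Ttc8 at 10.2 CPM per kb, and the ranges of these 3 did not overlap. In spermatocytes Ift140, the large scaffold of subcomplex A, was highest at 1912 CPM per kb, between 1359 and 2173 in its 4 libraries, above Ift46 at 1260 and Ift22 at 1175. Ttc8 was again lowest at 88.5, after Bbs5 at 100.5, Bbs1 at 114.9, Bbs4 at 121.6 and Ift27 at 127.0 CPM per kb. Neighbours in these orders mostly could not be separated: the ranges of 21 of 26 neighbouring pairs overlapped in round spermatids and those of 23 of 27 in spermatocytes.

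Between the stages, read abundance of the members moved in both directions. By the best covered event of each gene, Bbs5 rose 5.45-fold in round spermatids and Ttc8 fell 9.55-fold, each set against spermatocytes. Of 27 members measured by the same event in both stages, 6 rose and 15 fell in round spermatids. The median member lay at -0.37 on the log2 scale, round spermatids minus spermatocytes, and the median of all 8512 genes tested at -0.45. Of all genes 78.3% passed the test, 28.5% higher and 49.8% lower, against 77.8%, 22.2% and 55.6% of the members, so the members' shares were close to the background. Scaling by the median ratio brought the median of all genes to -0.022 and the split to 11 members higher and 12 lower, against 38.3% and 37.1% of all genes. In bulk RNA, fewer cells of a type and less RNA per cell cannot be told apart.

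**Figure D1:**
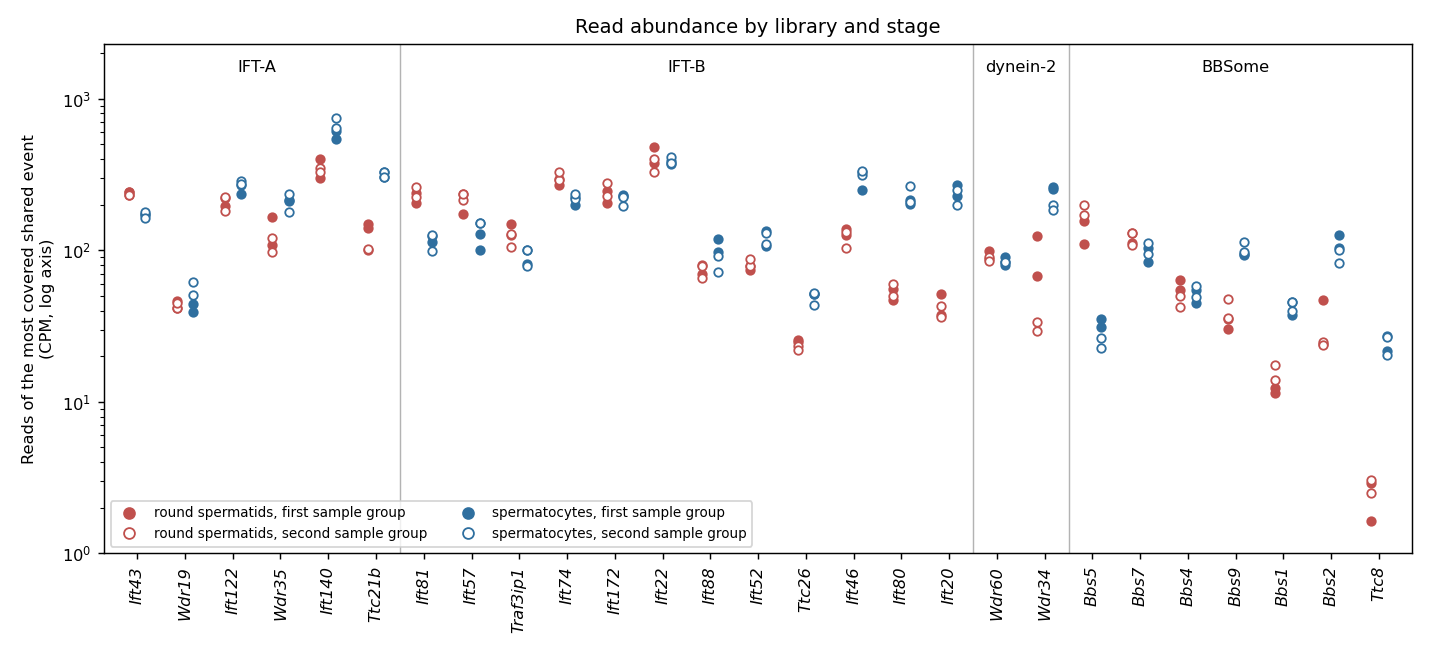
Reads of the most covered shared event of each member in CPM on a log axis, by complex, with 1 point per library, round spermatids left of spermatocytes. Bbs5 lies between 109.6 and 199 CPM in round spermatids, against 22.7 to 35.1 CPM in spermatocytes, and Ttc8 between 1.64 and 3.03 against 20.4 to 27.3.

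Within the BBSome, 1 member rose, 4 fell and 2 did not pass the test. Bbs5, a core subunit that binds phosphoinositides, had 109.6 and 156 CPM in group 1 and 199 and 170 CPM in group 2 of round spermatids, against 31.2 and 35.1 CPM and 26.4 and 22.7 CPM in spermatocytes. Every round spermatid library was above every spermatocyte library, and the log2 difference was 2.44 (SE 0.15, adjusted p = 1.151e-08 by limma). Ttc8, the subunit also called BBS8, had 2.90, 1.64, 2.50 and 3.03 CPM in round spermatids, against 27.3, 21.5, 26.7 and 20.4 CPM in spermatocytes, a log2 difference of -3.26 (SE 0.25, adjusted p = 9.909e-08). The stages did not overlap for either gene. Bbs2 fell by 1.83, Bbs1 by 1.61 and Bbs9 by 1.44 on the log2 scale. These 3 are a BBSome core subunit, the subunit that meets the small GTPase ARL6, and a subunit of the coat's scaffold. Bbs4 had 42.3 to 63.5 CPM in round spermatids and 44.8 to 58.4 CPM in spermatocytes, and Bbs7 had 107.9 to 130.9 CPM against 83.6 to 112.5 CPM. Under median-ratio scaling Bbs4 and Bbs7 also passed, at 0.44 (adjusted p = 0.02159) and 0.72 (adjusted p = 0.0006346).

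In subcomplex B, 4 members rose, 6 fell and 2 did not pass the test. Ift81 and Ift74 form the dimer known to bind tubulin. Ift81 had 237.9, 204, 262 and 225 CPM in round spermatids, against 124, 113.6, 126.8 and 98.8 CPM in spermatocytes, and rose (log2 difference 1.003, SE 0.13, adjusted p = 1.059e-05). Ift74 rose 1.35-fold, Traf3ip1, the microtubule-binding subunit also called IFT54, 1.4-fold and Ift57, a partner of Ift20 in the particle, 1.63-fold. Ift80, a subunit with WD40 repeats, had 55.8, 47.2, 49.8 and 60 CPM in round spermatids and 201, 214, 266 and 209.5 CPM in spermatocytes, 4.17-fold lower (log2 difference -2.06, SE 0.13, adjusted p = 1.848e-08). That event is of a 124-nt exon, with 500, 804, 517 and 614 including reads, against 1636, 3481, 2661 and 2120 in spermatocytes. The 172-nt exon was similar, with 469, 746, 572 and 639 against 1699, 3456, 2332 and 2355. The 180-nt exon (chr3:68950354-68950533) fell further, with 200, 298, 208 and 160 against 1480, 2690, 1886 and 1604. The size of the fall thus depended on the event. The stages did not overlap for Ift80 or for Ift81.

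Ift20, the subunit that is also found at the Golgi, fell by 2.50 on the log2 scale (SE 0.15, adjusted p = 7.562e-09). Its most covered event is centred on the exon that was itself skipped more in round spermatids, so that the loss of exon reads enters this value. With reads divided by the length of their form, a setting chosen after seeing the data, it was 3.62-fold lower (log2 difference -1.86, adjusted p = 1.014e-07). That value still uses the same event. Reads that include the next exon, of 129 nt and kept at 99.6 to 100%, fell less. They numbered 645, 931, 530 and 555, against 1385, 2438, 1705 and 1257 in spermatocytes. Division by form length also ended the call of Ift88 (-0.31, adjusted p = 0.05471) and added calls for Wdr19 (-0.39, adjusted p = 0.02525) and Bbs7 (0.33, adjusted p = 0.0325). Ift46, which helps import outer dynein arms in Chlamydomonas, fell by 1.29, Ttc26, also called IFT56, by 1.06, Ift52 by 0.58 and Ift88 by 0.35. For Ift88, whose mutation in mice causes polycystic kidneys, the sign was not kept under median-ratio scaling, where it was 0.076 (adjusted p = 0.6384), and Ift52 no longer passed there, at -0.15 (adjusted p = 0.3334). Ift22 and Ift172 did not pass the test, with log2 differences of 0.016 and 0.11, and passed under median-ratio scaling at 0.45 (adjusted p = 0.009999) and 0.54 (adjusted p = 0.001218).

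Subcomplex A had 1 member that rose, 4 that fell and 1 that did not pass. Ift43, a small subunit, had 244, 244, 231 and 233 CPM in round spermatids, against 172, 173, 180.3 and 163 CPM in spermatocytes, and rose 1.38-fold (log2 difference 0.47, SE 0.11, adjusted p = 0.001331). Ttc21b, also called IFT139, fell by 1.39, Ift140 by 0.88, Wdr35, also called IFT121, by 0.80 and Ift122 by 0.37. The fall of Ift122 turned to 0.056 (adjusted p = 0.693) under median-ratio scaling. Wdr19, also called IFT144, had 41.4 to 46.5 CPM in round spermatids and 39.0 to 61.8 CPM in spermatocytes, measured over a retained intron. Of the dynein-2 intermediate chains, Wdr34 fell by 2.06 (SE 0.17, adjusted p = 1.797e-07), by 1.49 with the first and 2.62 with the second sample groups alone. Wdr60 had 84.7 to 98.6 CPM in round spermatids and 80.2 to 89.7 CPM in spermatocytes, with a log2 difference of 0.094 (adjusted p = 0.4896; 0.52 and adjusted p = 0.003069 under median-ratio scaling).

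Genes that work with these complexes were counted from a list of 32 motors, small GTPases and regulators, of which 21 were measured in both stages. In round spermatids 8 of 21 rose and 7 fell, where 28.5% of all genes rose and 49.8% fell. With median-ratio scaling 12 of 21 rose and 2 fell, where 38.3% of all genes rose and 37.1% fell. Kif17, a kinesin-2 motor, had 471, 630.5, 749 and 674 CPM in round spermatids, against 43.3, 39.9, 28.9 and 53.6 CPM in spermatocytes (log2 difference 3.94, SE 0.18, adjusted p = 9.520e-10). Kifap3, the accessory subunit of the heterotrimeric kinesin-2, rose by 1.65 and Arl13b, a ciliary GTPase, by 2.96, while Dync2h1, the dynein-2 heavy chain, fell by 1.05 and Mks1, of the transition zone, by 2.92.

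Most markers of the sorted stages moved as their names say. Markers of spermatocytes summed to 827 to 1084 CPM in round spermatid and 3988 to 5290 CPM in spermatocyte libraries, with 9 of 10 lower in round spermatids. Ccna1 did not pass (log2 difference 0.10, adjusted p = 0.4755 by limma) and was higher under median-ratio scaling (0.53, adjusted p = 0.005251). Markers of round spermatids summed to 3219 to 3897 CPM, against 1734 to 2519 CPM in spermatocytes, with 5 of 6 higher. Spata16, a large part of both sums, had 1733 to 2151 CPM against 1384 to 2053 CPM. It did not pass (log2 difference 0.090, adjusted p = 0.4899 by limma), but did under median-ratio scaling (0.52, adjusted p = 0.005015). Markers of elongating spermatids, the next stage, summed to 9874 to 16560 CPM in round spermatids, against 2148 to 3322 CPM in spermatocytes, with 4 of 4 higher. The part of other stages in the members' differences was not tested.

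Most member exons were included in nearly all reads in both stages. Of tested cassette events, 88% of 183 in round spermatids and 90.9% of 230 in spermatocytes had a median level over 90%, against 80.8% and 83.9% of all cassette events. Events with a median of 10 to 90% numbered 58 of 253 and 62 of 305, and 43 and 50 of these were mutually exclusive pairs. In 40 and 48 of these pairs the counted exon was also tested as a cassette exon, and in 35 and 44 its cassette levels all had medians over 90%. A middle level of such a pair need not mean that one exon excludes the other, since reads over 2 exons that are both kept can fall in both forms. The 178-nt exon of Ift140 stood at 59.7 to 67.8% of its pair in round spermatids and 59.3 to 66.9% in spermatocytes. The 147-nt exon of Ift122 stood at 46.3 to 55.4% and 51.1 to 57.2%, the 99-nt exon of Ift172 at 51 to 54.5% and 49.3 to 56.9%, the 196-nt exon of Ttc21b at 35.2 to 45.3% and 39.8 to 46.6%, and the 77-nt exon of Ift22 at 29.6 to 32.6% and 29.9 to 39.6%. The ranges of the stages overlapped in each of these 5.

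Cassette exons at middle levels were fewer, 13 events in round spermatids and 10 in spermatocytes. Besides those described next, Bbs9 had a 56-nt exon (chr9:22476570-22476625) at 55.0, 53.6, 66.4 and 55.0% in round spermatids and 58.3, 55.6, 60.8 and 63.4% in spermatocytes. The stages overlapped. A second event of the same Bbs9 exon, with other flanks, had 84.2 to 94.1% in round spermatids from 8 reads of the rarer form and 71.9 to 86.5% in spermatocytes.

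Splicing of the members differed between the stages in 26 of 181 events with the same coordinates in both, or 14.4%, against 12.5% of 34455 events. Inclusion was higher in round spermatids in 11 (6.08%, against 6.5% of all) and lower in 15 (8.29%, against 5.96%). The calls fell in 15 genes and on 24 distinct alternative parts. Only 4 events (2.21%, against 4.64% of all) differed by at least 10 points with no overlap of libraries, and 10 of the 26 differed by less than 3 points. Of the 17 distinct cassette exons called, 4 had a length divisible by 3, and of the 118 distinct cassette exons tested 50 had. Whether these exons lie in coding sequence was not analysed here. With the libraries of the first sample groups alone 17 events passed, and with those of the second alone 8. On leaving out each library in turn, 10 of the 26 calls were kept throughout, in Bbs2, Ift20, Ift74, Ift80, Ift122, Ift172 and Traf3ip1, and 16 were lost at least once.

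**Figure D2:**
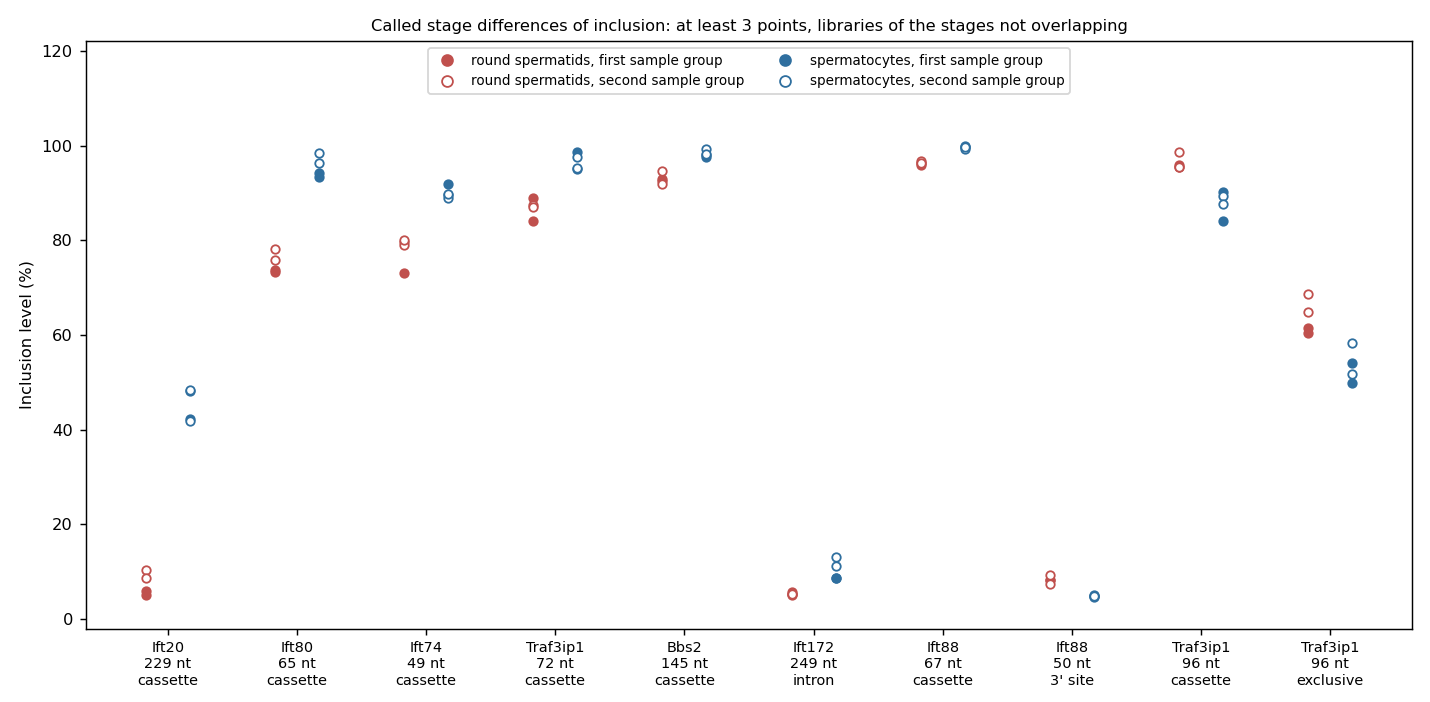
Inclusion levels in percent of the 10 called events that differed by at least 3 points between the stages with no overlap of libraries, 1 point per library, round spermatids left of spermatocytes. The 229-nt exon of Ift20 lies between 5.1 and 10.3% in round spermatids, against 41.9 to 48.3% in spermatocytes.

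Ift20 showed the widest difference. Its 229-nt exon (chr11:78538510-78538738) follows an exon that begins at chr11:78536361, the base after the RefSeq upstream window. In round spermatids its inclusion was 5.9 and 5.1% in group 1 and 10.3 and 8.7% in group 2, against 48.2 and 42.2% and 48.3 and 41.9% in spermatocytes. Reads that skip it numbered 298 to 565 per library in round spermatids and 655 to 1304 in spermatocytes, while reads that include it numbered 63 to 100 and 1296 to 2419. The log2 odds differed by -3.38 (SE 0.28, adjusted p = 1.141e-30), and the stages did not overlap. The next exon, of 129 nt, was included at 99.8 to 100% in round spermatids and 99.6 to 100% in spermatocytes and was not called. Within round spermatids the first sample group was below the second for the 229-nt exon, which limma did not call (adjusted p = 0.6411), whereas in the authors' deposited table its FDR was 0.01328.

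In Ift80 a 65-nt exon (chr3:68927727-68927791) had 73.4, 73.8, 75.8 and 78.2% in round spermatids and 93.3, 94.2, 98.4 and 96.4% in spermatocytes. Skipping was more frequent in every round spermatid library than in any spermatocyte library (log2 odds difference -2.92, SE 0.32, adjusted p = 2.025e-17). A 3537-nt intron of the same gene had retention levels of 1.4, 3.66, 1.86 and 2.28% in round spermatids and 0.696, 0.741, 0.61 and 0.681% in spermatocytes, and rose by 1.88 in log2 odds (adjusted p = 1.248e-16). The retained form stayed rare in both stages. Ift80 exons of 148 and 111 nt were called at differences of -1.39 and -0.39 points. The 111-nt exon had 10 skipping reads in all, and its log2 odds difference of -2.37 became -0.13 (adjusted p = 0.9868) without library 2 of group 1 of round spermatids and -0.78 (adjusted p = 0.9433) without library 1 of group 2.

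Ift74 has a 49-nt exon (chr4:94624731-94624779) included at 79.7, 73.0, 79.1 and 80.0% in round spermatids and 89.6, 91.8, 89.0 and 89.8% in spermatocytes (log2 odds difference -1.44, SE 0.18, adjusted p = 3.738e-14). The gene's reads rose between the stages while this exon fell. Skipping reads numbered 320 to 850 per library in round spermatids and 89 to 173 in spermatocytes.

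Traf3ip1 had 4 called events on 2 exons, in opposite directions. Its 72-nt exon (chr1:91505423-91505494) fell to 84.1, 88.9, 87.5 and 87.0% in round spermatids, against 98.6, 95.0, 97.6 and 95.2% in spermatocytes (log2 odds difference -1.78, SE 0.28, adjusted p = 6.839e-09). This held for the event whose upstream exon is chr1:91501005-91501424. From the upstream exon chr1:91497953-91498021 the 72-nt exon was at 98.8 to 100% in round spermatids and 99.3 to 100% in spermatocytes. The 96-nt exon (chr1:91511352-91511447) rose to 95.5, 95.9, 98.7 and 95.5%, against 84.0, 90.1, 89.4 and 87.6% in spermatocytes, where the next exon is the 63-nt one (log2 odds difference 1.72, SE 0.27, adjusted p = 5.350e-09). With the exon at chr1:91518294-91518314 as its downstream flank, the 96-nt exon had 86.5, 81.7, 65.8 and 79.4% in round spermatids and 55.7, 70.6, 62.9 and 69.6% in spermatocytes. There the stages overlapped, and the call (adjusted p = 0.0006867) was lost without weights (adjusted p = 0.07418), with the trend on total reads (adjusted p = 0.09149) and in the second sample groups alone (adjusted p = 0.5815). The exclusive pair of the 96-nt and 63-nt exons, with the 96-nt exon at 60.4 to 68.7% in round spermatids and 49.8 to 58.3% in spermatocytes, was called at an adjusted p of 0.03066. That call was lost without weights (adjusted p = 0.05269), in either sample group alone and on leaving out 6 of the 8 libraries in turn, with adjusted p between 0.05385 and 0.2404.

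Smaller stage differences were measured in the other members with a call. In Ift88 a 67-nt exon (chr14:57507205-57507271) was at 95.9 to 96.8% in round spermatids and 99.2 to 100% in spermatocytes (adjusted p = 1.447e-05), and an alternative 3′ splice site that adds 50 nt was used at 7.44 to 9.28%, against 4.62 to 5.07% (adjusted p = 0.004326). In Ift172, the largest subunit of subcomplex B, a 249-nt intron (chr5:31285829-31286077) had retention levels of 5.33, 5.64, 5 and 5.37% in round spermatids and 8.62, 8.74, 13.1 and 11.3% in spermatocytes (log2 odds difference -1.03, SE 0.19, adjusted p = 1.752e-06). The round spermatid libraries of Ift172 lay within 1 point of each other. In Bbs2 a 145-nt exon was at 91.9 to 94.7% in round spermatids, with 9 to 27 skipping reads per library, against 97.6 to 99.2% in spermatocytes, with 3 to 20 (adjusted p = 5.046e-05). In Bbs5 a 128-nt exon was at 78.2, 85.9, 90.1 and 85.4%, against 76.6, 75.5, 84.4 and 78.2%, and was called (adjusted p = 0.03633) although the stages overlapped. That call was lost without weights (adjusted p = 0.1889) and with the trend on total reads (adjusted p = 0.2211). In Ift52 a 155-nt exon was at 86.4, 94.4, 85.7 and 90.1%, against 93.5, 95.2, 93.4 and 93.8% (adjusted p = 0.001399), also with overlap, and was lost in the same settings (adjusted p = 0.2089 and 0.1035).

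The remaining calls were mostly on rare forms, and each of them but that of the Ift122 intron was lost on leaving out at least 1 library. They comprised a 100-nt exon of Wdr60 at 94.9 to 98.8% in round spermatids and 99.2 to 99.5% in spermatocytes, a 163-nt exon of Ift57 at 99.4 to 100% against 96.9 to 99.6%, a 137-nt exon of Ift172 at 99.9 to 100% against 98.6 to 99.5%, a 49-nt exon of Ift46 at 0.0998 to 1.25% against 1.07 to 1.56%, and an exclusive exon of Ift43 at 0 to 0.343% against 0.348 to 1.26%. Wdr19 retained a 1552-nt intron at 6.87 to 11.3%, against 4.95 to 7.02% (adjusted p = 0.01467). Ift122 had a 1932-nt intron at 1.21 to 1.85%, against 2.44 to 3.41% (adjusted p = 3.801e-07), and a 233-nt exon at 0.182 to 0.941%, against 0.0709 to 0.206% (adjusted p = 0.0001118; 0.1378 without weights).

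Ift122 also had calls on its 177-nt exon (chr6:115882647-115882823), at 86.9, 90, 84.3 and 84.7% in round spermatids and 73.1, 77.4, 85.3 and 83.6% in spermatocytes (log2 odds difference 0.67, SE 0.17, adjusted p = 0.001). The stages overlapped. The log2 odds difference was 1.32 in the first sample groups alone (adjusted p = 5.028e-06) and 0.015 in the second alone (adjusted p = 0.9734), and the call was lost without library 2 of group 1 of round spermatids (adjusted p = 0.08196). A 286-nt exon that is exclusive with it had 8.37, 6.41, 11 and 9.93% in round spermatids and 17.8, 15, 10.8 and 10.8% in spermatocytes (adjusted p = 0.001272).

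Among the partner genes 11 of 104 tested events, or 10.6%, were called between the stages, near the 12.5% of all events. They were in Arl6, Cluap1, Dync2h1, Dynlrb2, Kif17, Kif3a, Rabl2 and Tctex1d2. Between the sample groups, 0 of 22 partners passed in abundance in round spermatids and 1 of 26 in spermatocytes. The shares of all genes were 0.0859% and 5.76%. The partner that passed was Dynlrb1, a light chain of dynein, at a log2 difference of 1.44 (adjusted p = 0.0174 by limma). Of partner events, 0 of 156 were called in round spermatids and 2 of 178 (1.12%) in spermatocytes, in Kif3a and Tctex1d2. The shares of all events were 0.131% and 0.537%.

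The comparison of the sample groups within a stage, which is the genotype comparison of the design without its direction, called 1 of 305 member events in spermatocytes (0.537% of 61123 events were called) and 0 of 253 in round spermatids (0.131% of 48060 events). At an unadjusted p under 0.05 there were 16 member events in round spermatids (6.32%, against 5.88% of all events) and 28 in spermatocytes (9.18%, against 8.59%), shares close to the background. The quasi-binomial test gave the same counts of calls, 0 and 1. With all 8 libraries sharing 1 spread the counts were 1 and 2.

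The called event was the same 177-nt exon of Ift122, between the exons that end at 115881623 and begin at 115884336. In spermatocytes its inclusion was 73.1 and 77.4% in group 1 and 85.3 and 83.6% in group 2 (log2 odds difference -0.77, SE 0.21, adjusted p = 0.04939). Skipping reads were 247 and 471 against 192 and 217. In round spermatids the order was the opposite, 86.9 and 90% in group 1 and 84.3 and 84.7% in group 2, and did not pass (log2 odds difference 0.54, SE 0.27, adjusted p = 0.6411). The difference between the stages in this difference, by header order, was 1.31 (SE 0.33, adjusted p = 0.3815 by limma) and was not called. In that test 0 of 34455 events were called. It was added after seeing the data, and 2757 events, among them 12 of the 181 of members, had an unadjusted p under 0.05. The spermatocyte call was close to the threshold, and simulated data showed more false calls than the nominal share. It was lost with the trend on total reads (adjusted p = 0.2524), without weights (adjusted p = 0.2966), with no filter on low counts (adjusted p = 0.5612) and on leaving out any 1 library (adjusted p between 0.1309 and 0.7285), with the sign kept in each of these settings. In the authors' deposited table this exon had an FDR of 0.0002922. The pair of the 286-nt and 177-nt exons, which shares most of these skipping reads, did not pass between the sample groups of spermatocytes (log2 odds difference 0.65, adjusted p = 0.1987).

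**Figure D3:**
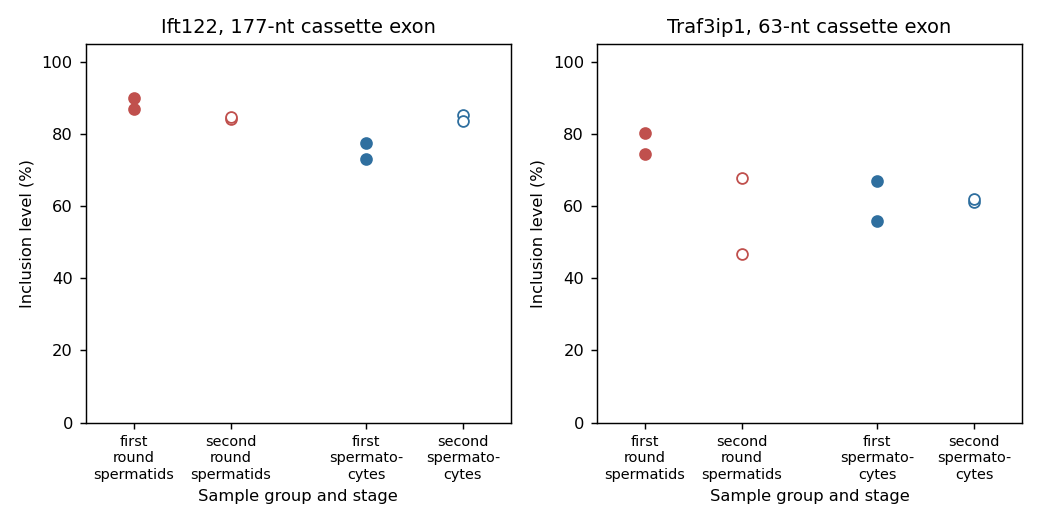
Inclusion levels in percent of the 177-nt exon of Ift122 and the 63-nt exon of Traf3ip1 in both libraries of each sample group, round spermatids left of spermatocytes and the first sample group left of the second. The Ift122 exon is at 73.1 and 77.4% against 85.3 and 83.6% in spermatocytes, and the Traf3ip1 exon at 80.2 and 74.5% against 46.7 and 67.7% in round spermatids.

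In round spermatids the smallest p of the members belonged to the 63-nt exon of Traf3ip1 (chr1:91516114-91516176), in the event that skips from the exon ending at 91507568 to the one beginning at 91518294. It had 80.2 and 74.5% in group 1 and 46.7 and 67.7% in group 2, with 36 and 89 against 114 and 68 skipping reads (log2 odds difference 1.31, SE 0.36, adjusted p = 0.1126). The groups did not overlap, but the gap between the libraries of group 2 was wider than the gap between the groups. In spermatocytes the values were 55.9 and 67.1% against 61.2 and 62.1%. With 8 libraries sharing 1 spread the round spermatid difference passed (adjusted p = 0.01571).

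Differences of at least 10 points with no overlap of libraries were seen in 3 of 253 member events in round spermatids, or 1.19%, against 4.02% of all events. They were the Traf3ip1 63-nt exon, the Traf3ip1 96-nt exon, which has the same skipping reads, and a 109-nt exon of Ift88 with 20 reads of the rarer form in all. In spermatocytes 0 of 305 member events met this rule, against 4.52% of all events. By the FDR of the authors' deposited tables, under 0.05, 4 of 263 member events passed in round spermatids (1.52%, against 2.59% of all) and 8 of 307 in spermatocytes (2.61%, against 4.96%). In round spermatids those of the authors' deposited table were in Ift20, Ift81, Traf3ip1 and Wdr60, each differing by at most 0.04 as a fraction. In spermatocytes the authors' deposited table had them in Bbs1, Ift122, Ift172, Ift46 and Ift80, the widest a 333-nt exon of Ift46 at -0.494 (FDR 0.0001306), which had too few reads to be tested here.

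Read abundance did not pass the test between sample groups for any member, 0 of 27 in round spermatids and 0 of 28 in spermatocytes by limma, where 0.0859% of 9315 and 5.76% of 9861 genes were called. In each stage 2 members had an unadjusted p under 0.05. Wdr34 was the one with the smallest p in both. In round spermatids it had 110 and 58.9 CPM in group 1 and 29.1 and 25.3 CPM in group 2 (log2 difference 1.57, SE 0.29, adjusted p = 0.07894), and 213 and 206 against 163 and 153 CPM in spermatocytes (log2 difference 0.41, SE 0.14, adjusted p = 0.08876). The first sample group was above the second in both stages with no overlap. In round spermatids the libraries of group 1 also differed widely from each other. With the reads of all events of a gene summed, Wdr34 passed in round spermatids (log2 difference 1.48, adjusted p = 0.01801 by limma). For its best covered event, leaving out 1 library in turn gave log2 differences of 1.116 to 2.016 in round spermatids. Such fits leave 1 library in a group. Under median-ratio scaling the log2 difference of Wdr34 was 1.496 (adjusted p = 0.209) in round spermatids and 0.25 (adjusted p = 0.312) in spermatocytes.

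**Figure D4:**
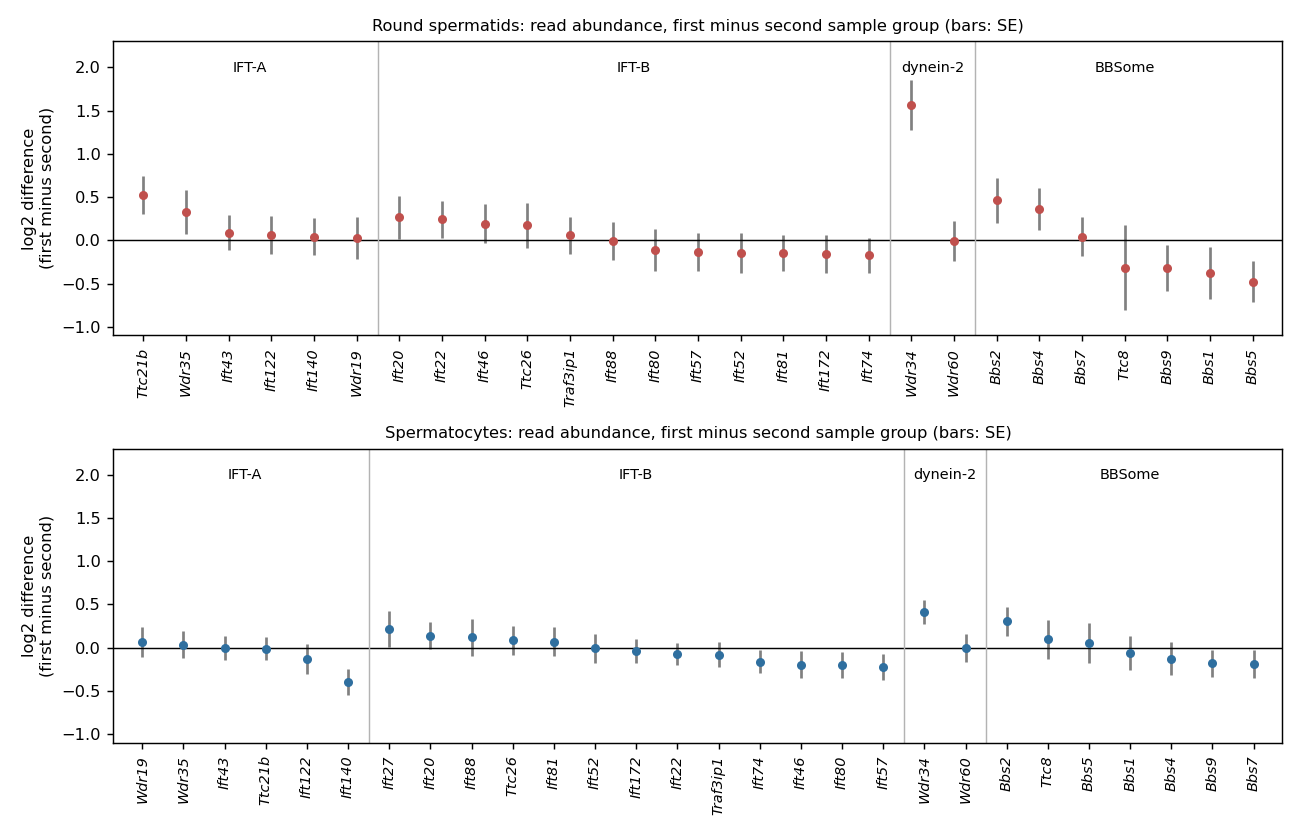
Log2 difference in read abundance, first minus second sample group, for each member by complex, round spermatids above spermatocytes; bars are standard errors of limma. Wdr34 lies at 1.57 in round spermatids and 0.41 in spermatocytes, and the other members lie between -0.48 and 0.52 in round spermatids.

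The other members with an unadjusted p under 0.05 were Ttc21b in round spermatids, with 132 and 123 CPM in group 1 and 87.7 and 89.3 CPM in group 2 (log2 difference 0.52, SE 0.22, adjusted p = 0.3963), and Ift140 in spermatocytes, with 492 and 661.5 against 787 and 722 CPM (log2 difference -0.40, SE 0.15, adjusted p = 0.1249). On leaving out 1 library in turn, which leaves 1 library in a group, the log2 difference of Ift140 ranged from -0.61 to -0.19. Over all members the log2 differences had a median of 0.043 in round spermatids and -0.013 in spermatocytes, beside 0.082 and 0.16 over all genes (0.013 and 0.0083 under median-ratio scaling).

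Markers of other cells also differed between the sample groups of spermatocytes. Markers of spermatogonia summed to 793 to 956 CPM in group 1 and 686.5 to 691 CPM in group 2, with 5 of 8 higher. Most of that sum was Ddx4, at 723 and 732 against 667 and 666 CPM, and not called. The median log2 difference of the 8 was 2.79, and library 1 of group 1 stood apart: Dmrt1 had 42.5 and 6.77 against 1.32 and 2.92 CPM, and Stra8 had 36.5 and 5.82 against 1.56 and 2.11 CPM. Markers of Sertoli cells, the supporting cells of the tubule, summed to 135 to 205 against 40.9 to 69.2 CPM, with 3 of 4 higher. Markers of spermatocytes summed to 3964 to 4442 CPM against 3321 to 3980 CPM, with 4 of 10 higher, and those of round and elongating spermatids to 1402 to 1821 against 1912 to 2071 CPM and 1737 to 2092 against 2455 to 2740 CPM, with 0 of 6 and 0 of 4 called. Under median-ratio scaling 2 of 10 spermatocyte markers, Ccna1 and Spo11, and 1 of 4 elongating spermatid markers, Akap4, were also lower. In round spermatids 0 of the markers tested for these 5 cell types passed, of 3 for spermatogonia, 3 for Sertoli cells, 10 for spermatocytes, 7 for round spermatids and 4 for elongating spermatids. Of the markers of Leydig, peritubular and immune cells, 0 of 4 passed in spermatocytes and 0 of 2 in round spermatids. Their median log2 differences were 0.82 and 0.71. The part of these cells in the members' values was not tested.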

How the data were processed

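The submitters' processing notes name STAR and the build mm10, with no version; the splicing caller is not stated there. The 10 deposited tables, 1 per stage and event type, hold inclusion and skipping read counts with the 2 libraries of a sample group joined in 1 cell, form lengths and inclusion levels as fractions, per the file headers. They also hold the authors' p-value and FDR, and an inclusion difference, a signed score that the authors deposited. Recomputed levels lay within 0.0005 of the deposited ones. No gene count table was used here.

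Inclusion was tested with limma 3.58.1 in R 4.3.3 on length-normalised log2 odds with an average of 0.5 reads added to each form, weights of inverse counting variance, and a moderated spread with a trend on the reads of the rarer form. Events needed a mean of at least 10 reads per library and a read of each form. Read abundance was tested with limma on log2 CPM of the most covered event of a gene, with a prior of 0.5 reads. An alternative that divides the reads of each form by its length was added after seeing the data. Stage tests used all 8 libraries in 4 groups. Benjamini-Hochberg adjustment ran over all events or all genes, and an adjusted p below 0.05 was called. Genes were named if called, if an event differed by at least 10 points with no overlap of libraries, for their best covered event at 10 to 90%, or for the highest and lowest levels.

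The members, the lists and the form of the fit were chosen with earlier results of these data known. The trend on the rarer form had been adopted in earlier work on these tables, where the trend on total reads made no calls between sample groups. In simulated data made with the noise of these libraries, inclusion changes were planted only in events where neither form was rare. Estimates of these changes were unbiased, and those for events with a rare form were not checked. Events with the fewest reads of the rarer form were given the noise of better covered ones. The share of false calls among inclusion calls exceeded the nominal level. It exceeded it further where simulated noise grew with total reads, which the real residuals did not do. Single calls near the threshold carry this limit. Sites in the promoters were counted in RefSeq windows. Figures used Python 3.11.15 and matplotlib 3.10.9.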

Additional observations from a re-analysis of the deposited data

How the results depend on the processing

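No paired analysis was possible because the joined cells do not carry the replicate numbers of the labels. Among members, the spermatocyte comparison of sample groups called 1 event, and 0 with no filter on low counts, 0 without weights, 0 with the trend on total reads and 2 with 8 libraries sharing 1 spread; that in round spermatids called 0, and 1 with 8 libraries. Leaving out 1 library gave 0 to 46 calls in spermatocytes and 0 to 37 in round spermatids for inclusion, and 0 to 1 and 0 to 3 for abundance. Such fits have 1 residual degree of freedom, assume that the lone library varies like the others, and called 0 to 11381 of all spermatocyte events, so they say little about stability. Summing all events of a gene called 1 member in round spermatids, Wdr34. The 26 stage calls became 17 without weights, 17 in the first sample groups alone and 8 in the second alone, and 16 to 25 on leaving out 1 library, lowest without library 2 of group 1 of round spermatids; 17, 15, 8 and 16 of these were among the 26. The 21 stage calls of abundance were 19 to 22 on leaving out 1 library.

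Stage differences of abundance changed sign for Ift122 (0.056), Wdr19 (0.28) and Ift88 (0.076) under median-ratio scaling, for Ift22 (-0.092), Bbs4 (-0.19) and Ift172 (-0.25) with all events summed, for Wdr19 (0.077) and Ift172 (-0.043) in the first sample groups alone and for Ift22 (-0.13) and Bbs4 (-0.21) in the second alone. On leaving out 1 library Ift22 ranged from -0.073 to 0.105 and Bbs4 from -0.058 to 0.0897. Of these, only Ift122 and Ift88 had been called; Ift172 was called as lower with all events summed (adjusted p = 0.03356). The cause was not tested. Counts of the rarer form limit the calls on exons included in nearly all reads.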
